A study of Homo sapiens with 12 samples.

Results

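The genes described here encode aminoacyl-tRNA synthetases, scaffold proteins of the synthetase complex, enzymes of serine synthesis and of folate one-carbon metabolism, and the aspartate aminotransferases. They were taken by name, 35 in all, with earlier results of these data known. Of these, 31 had a probe set naming that gene alone and were measured, among 11964 genes on the arrays. FARSB, AIMP2, MARS1 and QARS1 were not analysed here: the probe sets of MARS1 and QARS1 also name a microRNA gene, and no probe set used here names the other two. The 31 were 16 cytosolic synthetases (GARS1 and KARS1 also serve mitochondria), 5 mitochondrial synthetases, the scaffold AIMP1, 3 serine synthesis enzymes, 4 folate enzymes and both aspartate aminotransferases.

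An aminoacyl-tRNA synthetase joins an amino acid to its tRNA, and each amino acid has its own enzyme, often with separate cytosolic and mitochondrial forms. Serine is made from a glycolytic intermediate by PHGDH, PSAT1 and PSPH, and SHMT1 and SHMT2 then pass a carbon from serine to folate, which MTHFD1 and MTHFD2 carry on towards purines and thymidylate. Many of these genes are known targets of ATF4, the transcription factor of the amino acid response, and of MYC, and PHGDH is known to be highly expressed in some breast cancers of the basal type and low in MDA-MB-231.

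The cells were labelled as MDA-MB-231, a human breast cancer line without oestrogen or progesterone receptor or HER2 amplification, in 4 groups of 3 biological replicates. One pair of groups carried a scramble shRNA or an shRNA against LSD2, and the other carried eGFP/Flag alone in a vector, or LSD2/eGFP/Flag. All 4 were transfected and kept in normal medium with G418 at 800 ug/ml, which kills cells that took up no plasmid. LSD2, the product of KDM1B, removes methyl groups from lysine 4 of histone H3, and the arrays address which genes change when it is lowered or raised. The labels name no promoter and no harvest time, and do not state if a line was 1 clone or if its replicates were separate cultures. The p-values therefore set a difference only against the spread between replicates, and may not cover variation between separately made lines.

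Limits of the series bear on every value below. Among the probe sets naming 1 gene alone, none names KDM1B (0 probe sets), so neither the knockdown nor the overexpression was checked on LSD2 itself. The shRNA arrays had median log2 values from 6.65 to 6.72 and the vector arrays from 7.03 to 7.18, and the sets were treated as normalized apart, so levels were compared only within each. The LSD2/eGFP/Flag arrays stood apart and went against their label: all 10 marker genes of MDA-MB-231 and similar mesenchymal-type lines fell there, CD44 from 12.41 to 3.99. ANXA1 fell by 8.60, AXL fell by 7.45 and TGFBI fell by 6.75. The mean log2 value of the 10 markers was 12.40 to 12.48 on eGFP/Flag arrays and 7.02 to 7.19 on LSD2/eGFP/Flag arrays. Within the shRNA arrays, the same mean was 11.46 to 11.53 with scramble shRNA and 11.47 with LSD2 shRNA, and 1 of the 10 was called, TGFBI, which fell by 0.70. Of 10 luminal breast markers 2 rose and 4 fell in the vector comparison, of 7 blood cell markers none passed, and of 10 fibroblast and endothelial markers 2 rose and 2 fell. Of all genes 30.9% rose and 26.1% fell in that comparison. In the shRNA comparison, FOXA1 (0.74) and XBP1 (0.61) rose among the luminal markers and none fell, LYZ (0.35) rose and CD14 (-0.29) fell among the blood cell markers, and PECAM1 (0.92) alone was called among the fibroblast and endothelial markers (these 5 are named after their values were seen). Their part in the results was not tested, and in the vector comparison a change of LSD2 and a difference in cell identity cannot be told apart. No vector comparison can be made without these arrays.

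To show what the members share in sequence, the RefSeq promoter windows of assembly GRCh38.p14, from 250 bases before to 50 bases after a start site, were searched on both strands. Of the 31 members, 26 had a window, and LARS1, VARS1, YARS1, PSPH and SHMT2 had none in the table used. The motif TGATGNAA, the form of many amino acid response elements, lay in the windows of 8 of these 26 members (30.8%), against 328 of 9562 tested genes (3.43%). In 6 of the 8 the match read TGATGCAA or its reverse complement. A match is a description of letters only. The stretches are printed 5′ to 3′ along the strand of the gene, with the match in capitals.

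AARS1 (chr16:70289675-70289704, minus strand): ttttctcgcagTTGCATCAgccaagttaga
CARS1 (chr11:3057407-3057436, minus strand): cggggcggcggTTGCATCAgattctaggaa
GARS1 (chr7:30594834-30594863, plus strand): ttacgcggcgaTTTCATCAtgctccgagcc
IARS1 (chr9:92293692-92293721, minus strand): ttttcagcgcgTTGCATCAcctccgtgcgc
NARS1 (chr18:57621804-57621833, minus strand): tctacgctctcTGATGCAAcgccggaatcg
TARS1 (chr5:33440956-33440985, plus strand): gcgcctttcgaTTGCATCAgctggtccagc
YARS2 (chr12:32756076-32756105, minus strand): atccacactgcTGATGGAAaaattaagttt
GOT1 (chr10:99430804-99430833, minus strand): aattgcattggTTGCATCAttctcggcagc

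The matches of AARS1, YARS2 and GOT1 began 187, 197 and 198 bases before the start site. Those of IARS1 and GARS1 began 13 and 33 bases before it, that of CARS1 lay across it, and those of TARS1 and NARS1 began 3 and 15 bases after it. The E-box CACGTG, the core of MYC binding sites, lay in the windows of 2 of 26 members (7.69%) and of 12% of tested genes. These 2 were IARS1, 186 bases before the start, and MTHFD1, 15 bases before it, and no match of one motif overlapped a match of the other.

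IARS1 E-box (chr9:92293867-92293894, minus strand): ggttcgttttcCACGTGgaggcgcaaaa
MTHFD1 E-box (chr14:64388327-64388354, plus strand): cagtccctaagCACGTGggttgggttgt

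The windows are set beside the vector comparison described further on. The motif TGATGNAA was held by 2 of the 12 members with a window that rose there (AARS1 and IARS1), by 3 of the 6 that fell (CARS1, GARS1 and GOT1) and by 3 of the 8 that did not pass the test (NARS1, TARS1 and YARS2). The 250 bases before the start of PHGDH, the member with the largest difference, held neither motif. They are printed beside those of AARS1, whose match is in capitals.

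PHGDH upstream (chr1:119711684-119711933, plus strand): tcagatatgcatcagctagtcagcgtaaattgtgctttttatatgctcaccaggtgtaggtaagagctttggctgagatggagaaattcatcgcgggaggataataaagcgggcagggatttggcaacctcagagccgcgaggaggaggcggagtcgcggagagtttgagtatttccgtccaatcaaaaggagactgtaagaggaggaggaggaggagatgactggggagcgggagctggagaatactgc
AARS1 upstream (chr16:70289507-70289756, minus strand): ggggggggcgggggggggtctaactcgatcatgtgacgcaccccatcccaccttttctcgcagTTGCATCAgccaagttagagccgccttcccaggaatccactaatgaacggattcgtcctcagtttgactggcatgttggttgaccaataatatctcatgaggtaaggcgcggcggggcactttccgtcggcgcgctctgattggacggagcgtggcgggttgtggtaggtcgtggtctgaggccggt

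In the comparison of LSD2 shRNA with scramble shRNA, 4 of the 31 members passed the test (limma, adjusted p under 0.05 over all genes). LARS2 and MTHFD2 rose, CARS1 and HARS2 fell, and 27 members did not pass. This share of 12.9% stood beside 10.5% of all genes (1260 of 11964), of which 5.00% rose and 5.53% fell. The members were mostly bright. All but SARS2, YARS2 and SHMT1 lay at or above the 59.05th percentile of all genes on every array. The 10.5% includes dim genes, so it is not a background of like brightness. With dim genes left out, 5 of the 30 members kept passed, beside 1387 of the smaller number of genes kept. The share of all genes that passed was higher among the genes kept, and that of the members did not exceed it. When each array was shifted to equal medians, 760 of all genes rose and 515 fell, and the same number of members, 2 and 2, did. At adjusted p under 0.01, LARS2 alone of the members passed (3.23%), against 4.71% of all genes. The median log2 difference of the members was -0.01, as it was over all genes, 15 of 31 differences lay above 0, and no member differed by 1 log2 unit or more. At an unadjusted p under 0.05, 6 members passed (19.4%), against 23.0% of all genes. The arrays of both groups did not overlap for 11 members (35.5%), against 28.3% of all genes. Without scramble replicate 2, LSD2 shRNA replicate 1 or LSD2 shRNA replicate 3, 2 members passed, LARS2 and CARS1.

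**Figure D1:**
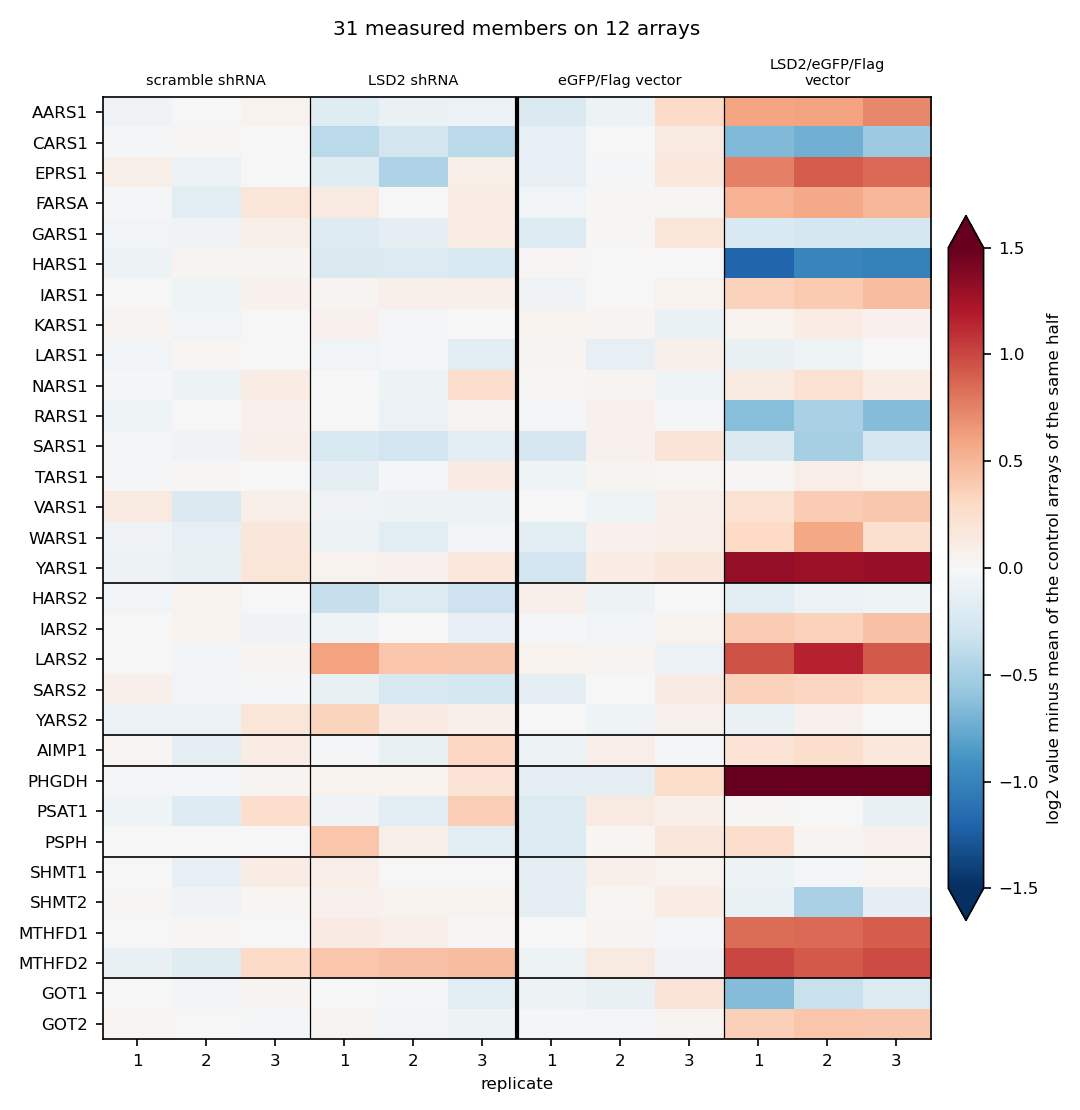
Log2 value of each of the 31 members on each of the 12 arrays, minus the mean of the 3 control arrays of the same set (scramble shRNA or eGFP/Flag vector); rows follow the members' roles, red is higher and blue lower, and the scale stops at 1.5 on either side, which PHGDH exceeds. The LSD2 shRNA columns are mostly pale, with LARS2 and MTHFD2 red and CARS1 blue on all 3 arrays, while the LSD2/eGFP/Flag columns are coloured in both directions.

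LARS2, the mitochondrial leucyl-tRNA synthetase, read 8.34, 8.30 and 8.38 on the scramble arrays and 8.94, 8.75 and 8.74 on the LSD2 shRNA arrays. Every LSD2 shRNA array lay above every scramble array. The log2 difference was 0.47 ± 0.08 (SE of the limma fit, adjusted p = 0.00274), a 1.39-fold rise. A second LARS2 probe set gave 0.21 ± 0.08 in the same direction and did not pass (adjusted p = 0.159).

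MTHFD2, the mitochondrial dehydrogenase and cyclohydrolase of the folate cycle, read 10.98, 10.91 and 11.38 with scramble shRNA and 11.51, 11.53 and 11.55 with LSD2 shRNA. The scramble arrays were spread out and the third came close to the LSD2 shRNA arrays without reaching them. MTHFD2 rose by 0.44 ± 0.11 (limma, adjusted p = 0.0187). It did not pass with scramble replicate 1, scramble replicate 2, LSD2 shRNA replicate 1 or LSD2 shRNA replicate 3 left out (adjusted p from 0.0569 to 0.0884), nor in a fit of the shRNA arrays alone (adjusted p = 0.06).

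CARS1, the cytosolic cysteinyl-tRNA synthetase, read 11.69, 11.72 and 11.70 on scramble arrays and 11.30, 11.43 and 11.30 on LSD2 shRNA arrays. The groups were well apart. CARS1 fell by 0.36 on the log2 scale (difference -0.36 ± 0.08, limma adjusted p = 0.0107), and its second probe set fell by 0.51 (adjusted p = 0.0268).

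HARS2, the mitochondrial histidyl-tRNA synthetase, read 9.34, 9.44 and 9.39 with scramble shRNA and 9.04, 9.19 and 9.08 with LSD2 shRNA. It fell by 0.29 (-0.29 ± 0.07, limma adjusted p = 0.0178), and did not pass with scramble replicate 2, LSD2 shRNA replicate 1 or LSD2 shRNA replicate 3 left out (adjusted p from 0.0568 to 0.0777). Its neighbour in gene order is HARS1, the cytosolic form. HARS1 read 10.99, 11.10 and 11.10 against 10.85, 10.86 and 10.83, again without overlap, and its difference of -0.22 ± 0.07 did not pass (limma adjusted p = 0.0638). HARS1 did pass in 5 of the alternatives, among them a dim-gene filter (adjusted p = 0.0423).

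Among the other members, the largest differences in this comparison were those of SARS1 (-0.23 ± 0.11), SARS2 (-0.21 ± 0.08) and EPRS1 (-0.19 ± 0.12), which charge serine in the cytosol, serine in mitochondria, and glutamate and proline. Their adjusted p-values were 0.24, 0.122 and 0.412 (limma). Both SARS1 and SARS2 had LSD2 shRNA arrays wholly below the scramble arrays, as was the case for HARS1.

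None of the 3 serine synthesis enzymes passed. PHGDH, the first enzyme of the route, differed by 0.10 with a 95% interval from -0.15 to 0.35, PSAT1 by 0.05 (-0.26 to 0.36) and PSPH by 0.11 (-0.17 to 0.39). SHMT1, SHMT2 and MTHFD1 differed by 0.03, 0.06 and 0.08, and the aspartate aminotransferases GOT1 and GOT2 by -0.06 and -0.03. SHMT1 was dim on every array, between the 6.58th and 14.56th percentile of all genes, so little can be read from its values.

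**Figure D2:**
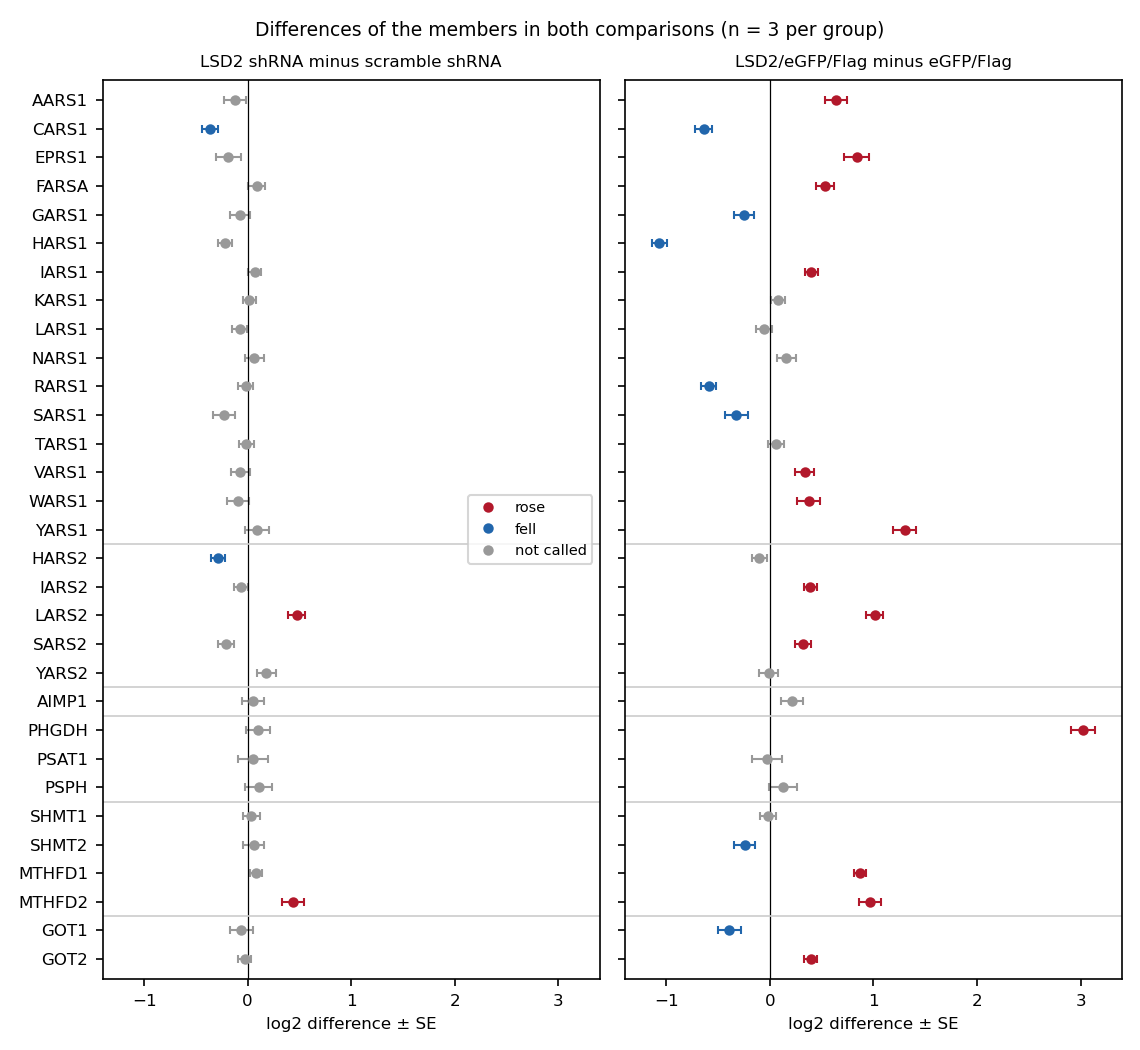
Log2 difference ± SE of each member in the shRNA comparison (left) and the vector comparison (right), n = 3 arrays per group; red marks members that rose, blue those that fell and grey those that did not pass at adjusted p under 0.05, and lines divide the roles. On the left 4 members are coloured and lie within 0.47 of 0, and on the right 21 are coloured, with PHGDH at 3.02.

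In the comparison of the LSD2/eGFP/Flag vector with the eGFP/Flag vector, 21 of 31 members passed, 14 of them higher and 7 lower. The 7 became 4 when LSD2/eGFP/Flag replicate 2, or replicate 2 or 3 of the eGFP/Flag group, was left out, and also with array weights, with the vector arrays alone and at adjusted p under 0.01, while 14 were again higher in each. Of all genes 3123 fell, and 2974 to 3014 did with one of those 3 arrays left out. With array weights 3642 of all genes rose and 3058 fell, and with the vector arrays alone 3530 rose and 2946 fell. At adjusted p under 0.01, 3219 rose and 2649 fell, against 3701 and 3123 in the main fit. The 67.7% of members that passed stood beside 57.0% of all genes, of which 30.9% rose and 26.1% fell. The 57.0%, here and beside each role below, includes dim genes and is not a background of like brightness. With dim genes left out, 21 of the 30 members kept again passed, beside 5761 of the smaller number of genes kept. The share of all genes that passed was higher among the genes kept, and the members' share did not exceed it. An excess of members over genes of like brightness was not tested. The median log2 difference of the members was 0.16, against 0.01 over all genes, and the median size without regard to sign was 0.37 against 0.31. Differences of at least 1 log2 unit were found for 4 members (12.9%), PHGDH, YARS1, HARS1 and LARS2, and for 18.3% of all genes. For 21 members (67.7%) the arrays of both groups did not overlap, against 61.1% of all genes. The greater part of all genes passed in this comparison, on the same arrays whose markers of the line fell.

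PHGDH, the enzyme that opens serine synthesis, had the largest difference of any member. It read 8.71, 8.70 and 9.13 on eGFP/Flag arrays and 11.85, 11.70 and 12.06 on LSD2/eGFP/Flag arrays. The groups were more than 2 log2 units apart at their nearest arrays. PHGDH rose by 3.02 ± 0.12, which is 8.13-fold (limma, adjusted p = 7.17e-11).

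The next enzyme, PSAT1, which makes phosphoserine, read 9.15, 9.48 and 9.42 and then 9.38, 9.35 and 9.25. The groups overlapped, and the difference was -0.03 with a 95% interval from -0.34 to 0.28, so PSAT1 did not pass. PSPH, the phosphatase that releases serine, gave opposite readings by probe set. Its chosen probe set read 9.28, 9.52 and 9.65 on eGFP/Flag arrays and 9.75, 9.53 and 9.55 on LSD2/eGFP/Flag arrays, a difference of 0.13 ± 0.13 that did not pass (limma, adjusted p = 0.454).

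The second PSPH probe set read 8.73, 8.89 and 9.02 and then 6.64, 6.57 and 6.66, with no overlap. By that probe set PSPH fell by 2.26 (-2.26 ± 0.14, limma adjusted p = 1.13e-08). On the chosen probe set the 3 scramble arrays had 1 and the same value, 8.10, which other members did not show. The direction of PSPH in the vector comparison is therefore uncertain.

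**Figure D3:**
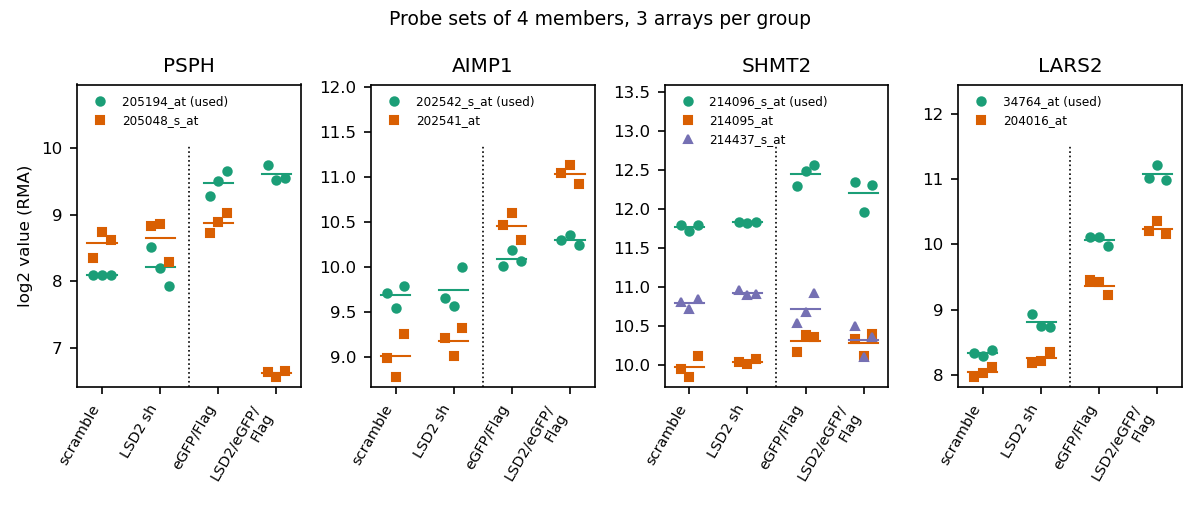
Log2 values on each array for every single-gene probe set of PSPH, AIMP1, SHMT2 and LARS2; points are arrays, short bars are group means (n = 3), and the dotted line divides the shRNA arrays from the vector arrays, which are not compared in level. The PSPH probe sets part in the LSD2/eGFP/Flag group, at 9.53 to 9.75 and at 6.57 to 6.66, whereas those of LARS2 move together.

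Of the 4 folate enzymes 2 rose and 1 fell (75% called, beside 57.0% of all genes). MTHFD1, the cytosolic enzyme with 3 activities on folate, read 12.13, 12.16 and 12.09 and then 12.96, 12.98 and 13.04. Arrays within each group were close together and the groups far apart, and MTHFD1 rose by 0.87 ± 0.06 (limma, adjusted p = 3.03e-08). MTHFD2 read 12.10, 12.31 and 12.12 on eGFP/Flag arrays and 13.18, 13.10 and 13.15 on LSD2/eGFP/Flag arrays, and rose by 0.97 ± 0.11 (limma, adjusted p = 3.08e-06).

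SHMT2, which splits serine in mitochondria, read 12.30, 12.48 and 12.56 and then 12.35, 11.96 and 12.30, and only the second LSD2/eGFP/Flag array was clearly low. The difference was -0.24 ± 0.10 (limma, adjusted p = 0.0498), and without that array it was -0.12 (adjusted p = 0.244). The call was lost when any of 9 arrays was left out (adjusted p from 0.0593 to 0.244). The exceptions were replicate 1 of the eGFP/Flag group and replicates 1 and 3 of the LSD2/eGFP/Flag group. The other SHMT2 probe sets gave -0.40 ± 0.11 (adjusted p = 0.0074) and -0.02 ± 0.09 (adjusted p = 0.879). SHMT1, the cytosolic form, differed by -0.02 ± 0.08 (adjusted p = 0.858).

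**Figure D4:**
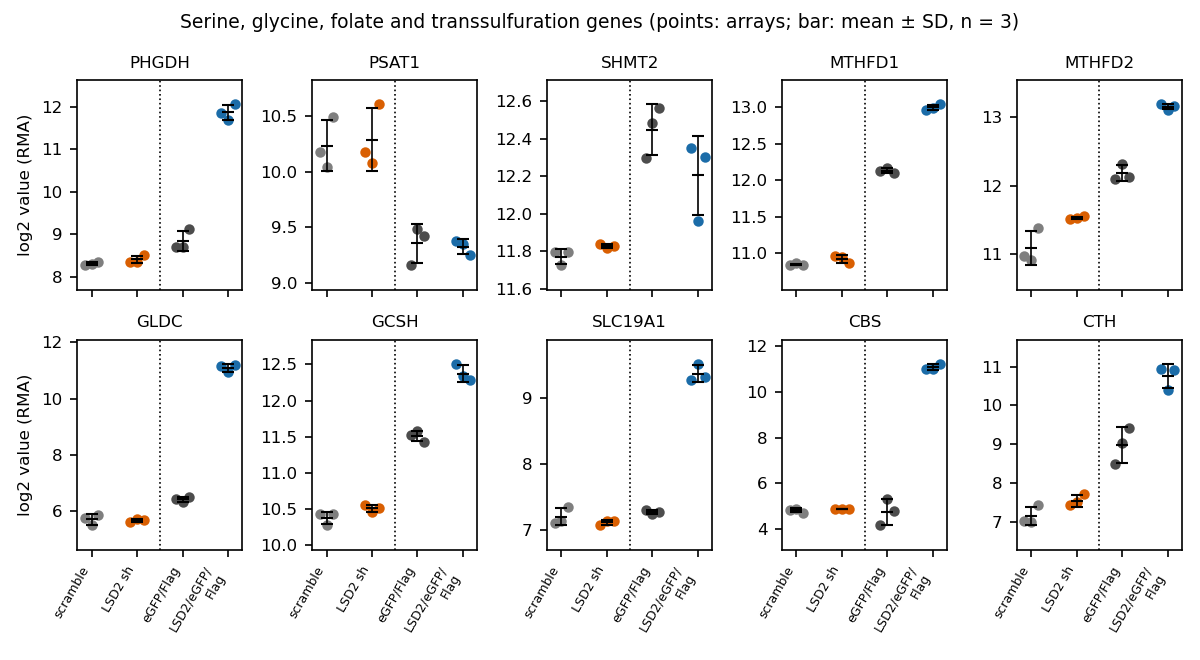
Log2 values on each array for 5 members of the serine and folate route (top) and 5 further genes of glycine cleavage, folate uptake and transsulfuration (bottom); points are arrays, bars are mean ± SD (n = 3), axes differ between panels and do not start at 0, and the dotted line divides the shRNA arrays from the vector arrays. PHGDH, GLDC and CBS are higher on LSD2/eGFP/Flag than on eGFP/Flag arrays by 3.02, 4.68 and 6.31, while PSAT1 is level.

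Of the 16 cytosolic synthetases 7 rose, 5 fell and 4 did not pass (75% called, beside 57.0% of all genes). YARS1, which charges tyrosine, had the largest rise. It read 11.31, 11.71 and 11.77 on eGFP/Flag arrays and 12.91, 12.87 and 12.90 on LSD2/eGFP/Flag arrays, all of the latter above all of the former. YARS1 rose by 1.30 ± 0.11, or 2.47-fold (limma, adjusted p = 2.78e-07).

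EPRS1, whose single protein charges glutamate and proline, read 11.52, 11.61 and 11.79 and then 12.39, 12.55 and 12.49. It rose by 0.84 ± 0.12 (limma, adjusted p = 3.69e-05), and its other probe sets rose by 0.87 and 0.80. AARS1, for alanine, read 10.36, 10.50 and 10.86 and then 11.17, 11.18 and 11.29, and the third eGFP/Flag array stood above the others of its group but below every LSD2/eGFP/Flag array. AARS1 rose by 0.64 ± 0.10 (limma, adjusted p = 0.000127).

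The remaining 4 rises among the cytosolic enzymes were between 0.34 and 0.53. FARSA, the catalytic subunit for phenylalanine, rose by 0.53 ± 0.08 (limma, adjusted p = 8.66e-05), with eGFP/Flag arrays at 9.63 to 9.69 and LSD2/eGFP/Flag arrays at 10.17 to 10.24. IARS1, for isoleucine, rose by 0.40 ± 0.06 (adjusted p = 0.000115), with arrays at 12.75 to 12.86 and at 13.15 to 13.27. WARS1, for tryptophan and also induced by interferon, rose by 0.37 ± 0.11 (adjusted p = 0.0091). VARS1, for valine, rose by 0.34 ± 0.09 (adjusted p = 0.00631), while its second probe set gave 0.19 and did not pass (adjusted p = 0.0751). In each of these 4 the groups did not overlap.

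HARS1, for histidine, had the largest fall of any member on the chosen probe sets. It read 11.80, 11.78 and 11.79 on eGFP/Flag arrays and 10.60, 10.79 and 10.77 on LSD2/eGFP/Flag arrays. The eGFP/Flag arrays were nearly level (SD 0.01), and no array of one group came near the other. HARS1 fell by 1.07 (-1.07 ± 0.07, 2.1-fold lower, limma adjusted p = 1.35e-08), while HARS2, its mitochondrial neighbour on chromosome 5, differed by -0.10 ± 0.07 and did not pass (adjusted p = 0.242).

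CARS1 read 12.68, 12.79 and 12.94 and then 12.14, 12.09 and 12.25. It fell by 0.64 (-0.64 ± 0.08, limma adjusted p = 9.08e-06), and its second probe set fell by 0.92. RARS1, for arginine, read 12.48, 12.59 and 12.48 and then 11.87, 12.04 and 11.86, and fell by 0.59 (-0.59 ± 0.07, adjusted p = 9.16e-06). Neither gene had overlapping groups.

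The remaining falls were near the threshold. SARS1 read 11.61, 11.93 and 12.06 and then 11.65, 11.36 and 11.61, with overlapping groups, and its difference was -0.32 ± 0.11 (limma, adjusted p = 0.0213). It did not pass without LSD2/eGFP/Flag replicate 2 or eGFP/Flag replicate 3 (adjusted p = 0.101 for each), nor without eGFP/Flag replicate 2 (adjusted p = 0.0661). GARS1, for glycine, read 12.98, 13.21 and 13.36 and then 12.95, 12.92 and 12.92. Its difference was -0.25 ± 0.10 (limma, adjusted p = 0.0492), and leaving out any of the 12 arrays but LSD2 shRNA replicate 3 or eGFP/Flag replicate 1 ended the call (adjusted p from 0.0509 to 0.208).

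KARS1, LARS1, NARS1 and TARS1, for lysine, leucine, asparagine and threonine, did not pass, with differences of 0.07, -0.06, 0.16 and 0.06. Their 95% intervals reached from -0.07 to 0.22 for KARS1, from -0.22 to 0.10 for LARS1, from -0.04 to 0.35 for NARS1 and from -0.10 to 0.22 for TARS1. KARS1 lay at or above the 99.27th percentile of all genes on every array.

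Among the 5 mitochondrial synthetases 3 rose and none fell, so that 60% were called, beside 57.0% of all genes. LARS2 read 10.11, 10.11 and 9.97 on eGFP/Flag arrays and 11.02, 11.21 and 10.99 on LSD2/eGFP/Flag arrays, with a wide gap between the groups. It rose by 1.01 ± 0.08 (2.01-fold, limma adjusted p = 1.44e-07), and its second probe set rose by 0.87. IARS2 rose by 0.39 ± 0.07 (adjusted p = 0.000156) and SARS2 by 0.32 ± 0.08 (adjusted p = 0.00311), both without overlap. YARS2 differed by -0.01 with a 95% interval from -0.21 to 0.19, while the cytosolic YARS1 had the largest rise among the synthetases.

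AIMP1, a scaffold protein that holds several synthetases together, read 10.01, 10.19 and 10.06 and then 10.29, 10.35 and 10.24. Its difference was 0.21 ± 0.11 (limma, adjusted p = 0.112), and it passed with LSD2 shRNA replicate 3 left out (adjusted p = 0.0405). The other AIMP1 probe set rose by 0.58 ± 0.12 (adjusted p = 0.00115), so the call depends on the probe set. The aspartate aminotransferases, which exchange amino groups between aspartate and glutamate, went opposite ways. GOT2, the mitochondrial form, read 12.04, 12.03 and 12.10 and then 12.41, 12.48 and 12.47, and rose by 0.39 ± 0.06 (limma, adjusted p = 8.72e-05). GOT1, the cytosolic form, read 10.35, 10.32 and 10.61 and then 9.78, 10.09 and 10.22, and fell by 0.39 (-0.39 ± 0.11, adjusted p = 0.00785).

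Set side by side, both comparisons called 3 members (9.68%) and did so in 1 direction: LARS2 and MTHFD2 were higher with the LSD2 shRNA and with the LSD2 vector, and CARS1 was lower with both. No member was called in opposite directions (0 of 31), and 9 were called in neither (29.0%). Of all genes, 366 (3.06%) were called in both in 1 direction, 594 (4.96%) in opposite directions and 4840 (40.5%) in neither. Across the 31 members the differences of both comparisons had a Pearson r of 0.45 and a Spearman rho of 0.51, and across all 11964 genes -0.16 and -0.10. Genes are the points of these correlations and are not independent of one another, and the comparisons share no arrays.

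The difference between the effects, vector minus shRNA, was called for 16 members, 14 above 0 and 2 below, against 50.4% of all genes (28.0% above and 22.4% below). After each array was shifted to equal medians the split was 11 and 5, and that of all genes went from 3347 above and 2682 below to 2804 and 3196. Without eGFP/Flag replicate 1, or without LSD2/eGFP/Flag replicate 3, 4 members lay below 0. PHGDH had the largest such difference, 2.92 ± 0.17 (limma, adjusted p = 6.72e-09), then YARS1 with 1.21 ± 0.16 (adjusted p = 2.5e-05) and EPRS1 with 1.02 ± 0.17 (adjusted p = 0.000185). HARS1 and RARS1 were the members below 0, at -0.85 and -0.58. The rises of LARS2 and MTHFD2 were each greater with the vector, by 0.54 ± 0.12 (adjusted p = 0.00152) and 0.53 ± 0.15 (adjusted p = 0.00978), while that of CARS1 did not pass (-0.28 ± 0.11, adjusted p = 0.0531).

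The members were also set beside their neighbours in RefSeq gene order, 5 measured genes on each side. With the LSD2 shRNA, 5.00% of all genes rose and 5.53% fell. In the shRNA comparison 6 of the 10 neighbours of LARS2 on chromosome 3 rose and none fell, with a median difference of 0.41. Of the 654 other genes of that chromosome 95 rose and 7 fell. CARS1 on chromosome 11 had 4 of 10 neighbours that fell and none that rose, with a median of -0.21, and 106 of 731 other genes of chromosome 11 fell and 17 rose. The next measured gene to CARS1, NAP1L4, fell by 0.43. MTHFD2 had no called neighbour (0 of 10), and on its chromosome 2 more genes fell (91 of 754) than rose (23). HARS2 had 1 neighbour of 10 that fell. The part of gene position in these calls was not tested.

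**Figure D5:**
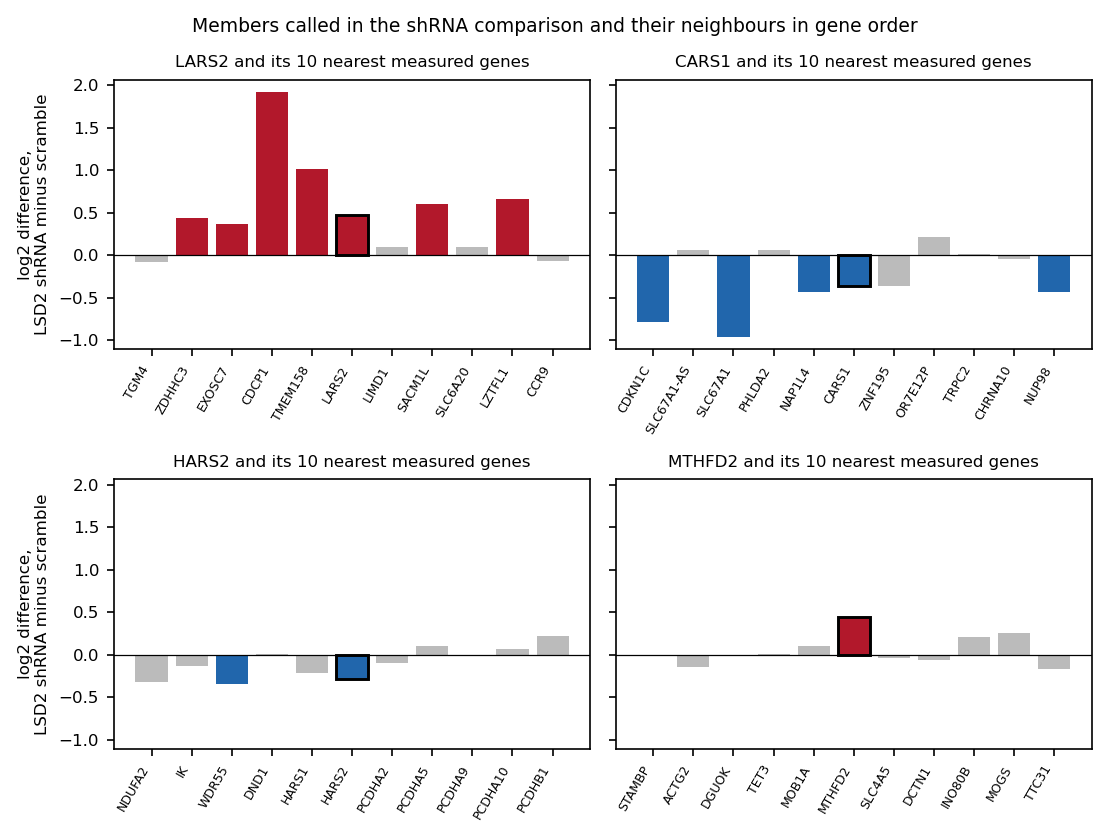
Log2 difference between LSD2 shRNA and scramble shRNA for the 4 members called there (black outline) and the 5 measured genes on either side in gene order, n = 3 arrays per group; red rose, blue fell and grey did not pass. LARS2 stands among 6 genes that rose and CARS1 among 4 that fell, whereas MTHFD2 stands among genes that did not pass.

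In the vector comparison, where 30.9% of all genes rose and 26.1% fell, the neighbours of the members gave a mixed picture. Of the 10 neighbours of YARS1, 9 rose and none fell, with a median of 0.96 beside the member's own 1.30. Of the 10 neighbours of SARS1, 8 fell and 1 rose, with a median of -0.51. For LARS2 the neighbours did not move with the gene: 2 rose and 5 fell, with a median of -0.29. PHGDH had 1 neighbour that rose and 2 that fell, with a median of -0.05, and HARS1 had 3 that fell and none that rose, with a median of -0.10. The 3 that fell were IK (-1.04), WDR55 (-1.03) and DND1 (-1.03), close to the -1.07 of HARS1 itself. AARS1 and GOT2 lie on chromosome 16, where 269 of 523 other genes rose and 63 fell. KARS1, which did not pass, lies on the same chromosome. Of the 10 neighbours, 5 rose and 3 fell for AARS1, and 7 rose and 2 fell for GOT2. Neighbours of FARSA also mostly rose (7 rose, 1 fell). Those of TARS1 (0 rose, 6 fell) and LARS1 (1 rose, 5 fell) leaned downward, though neither member passed. The part of position was not tested here either.

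The genes around these routes were taken from lists by function. The counts of each list stand beside those of all genes. In the vector comparison 30.9% of all genes rose and 26.1% fell, and in the shRNA comparison 5.00% rose and 5.53% fell. Among 18 other one-carbon and methionine genes, 9 rose and 3 fell in the vector comparison. CBS, which joins serine and homocysteine, read 4.17, 5.32 and 4.78 and then 11.01, 10.98 and 11.21, and rose by 6.31 ± 0.20 (limma, adjusted p = 9.1e-12). GLDC, the glycine decarboxylase of the glycine cleavage system, read 6.43, 6.31 and 6.50 and then 11.15, 10.94 and 11.19, and rose by 4.68 ± 0.10 (adjusted p = 1.79e-13). On the eGFP/Flag arrays both lay below the median of each array, and RMA values do not say if a probe set was above background, so no fold is given for them. SLC19A1, the reduced folate carrier, rose by 2.09 ± 0.08 (adjusted p = 8.16e-11), and its other probe sets gave 0.28, 1.13 and 4.88. CTH, which releases cysteine downstream of CBS, rose by 1.78 and GCSH, the carrier protein of glycine cleavage, by 0.86, and SLC25A32, MAT2B and MTRR fell by 0.72, 0.59 and 0.24 (these 5 are named after their values were seen). CBS, GLDC and SLC19A1 had differences near 0 in the shRNA comparison (0.07, -0.04 and -0.08). There none of the 18 rose on the chosen probe sets, and DLD (-0.33) and AHCY (-0.31) fell. A second MTRR probe set rose there by 0.36 (limma, adjusted p = 0.0353), while the chosen one gave 0.17 and did not pass.

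Among 5 other synthetases 3 rose in the vector comparison, CARS2 by 0.63, NARS2 by 0.57 and FARS2 by 0.33, all mitochondrial, and none fell. CARS2 thus rose where the cytosolic CARS1 fell. None of the 5 passed in the shRNA comparison. Of 11 purine synthesis genes 6 rose and none fell with the LSD2 vector, led by PFAS (0.79), PRPS1 (0.70) and IMPDH1 (0.51). In the shRNA comparison 2 rose, IMPDH2 (0.51) and PRPS2 (0.33), and 2 fell, ATIC (-0.34) and PFAS (-0.30). PFAS, which acts in the middle of the purine route, was therefore called in opposite directions.

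Of 19 amino acid response genes 9 rose and 7 fell with the LSD2 vector. ATF4 read 11.28, 11.46 and 11.77 and then 13.04, 12.76 and 12.86, and rose by 1.39 ± 0.11 (limma, adjusted p = 1.09e-07). ATF3 (2.42) and STC2 (2.33) rose further, and VLDLR (-1.57), CEBPG (-1.26) and DDIT3 (-0.95) fell, so the genes of this list did not move one way. ASNS, the asparagine synthetase, differed by 0.60 and did not pass. ATF4 differed by 0.03 in the shRNA comparison, where ALDH18A1 (0.30) rose and ATF5 (-0.53) fell. ATF4, CEBPG, DDIT3 and ASNS are named here after their values were seen.

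Of 10 amino acid transporters 2 rose and 3 fell with the LSD2 vector. The largest differences were those of SLC7A11 (-1.77), the cystine carrier, SLC38A1 (-1.33) and SLC43A1 (0.70), and with the LSD2 shRNA SLC38A2 alone was called (0.40). MYC read 9.79, 10.38 and 10.17 on eGFP/Flag arrays and 12.44, 11.48 and 12.14 on LSD2/eGFP/Flag arrays, without overlap, and rose by 1.91 ± 0.21 (limma, adjusted p = 2.59e-06). MYCL rose by 1.63 and MAX, the partner of MYC proteins, by 0.30, while MYCN differed by 0.00 on the chosen probe set and rose by 1.86 on another. No gene of this list of 4 passed in the shRNA comparison, where MYC differed by 0.46 ± 0.21 (adjusted p = 0.203).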

How the data were processed

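Total RNA from 12 samples was labelled with biotin and measured on Affymetrix arrays. The authors deposited log2 values of 22277 probe sets, made with RMA per the submitters' processing notes; its software and annotation release: not given in the sources used here. RMA values carry no detection calls, and array number limits the precision. Probe sets naming 1 gene (19064) were used, with the highest mean over all arrays for each gene. Differences were fitted with limma 3.58.1 in R 4.3.3 (lmFit and eBayes, group means, all 12 arrays, two-sided), Benjamini-Hochberg adjusted over 11964 genes and called at adjusted p under 0.05. The procedure was tested on simulated data. Every member was named, with full statistics for called members and the 8 largest differences per comparison, and from each further list up to 3 called genes with the largest differences, all MYC family genes, and other probe sets where they disagreed. Members and lists were chosen with earlier results of these data known. Alternatives were a replicate block, other normalizations and filters, the mean of probe sets, each probe set alone (added after seeing the data), array weights, a stricter threshold and leaving out each array.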

Additional observations from a re-analysis of the deposited data

Results flagged for a closer look

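For 16 members the vector effect differed from the shRNA effect in limma's test of the difference itself (adjusted p under 0.05). All values are log2 differences, vector effect minus shRNA effect, and the vector effect rests on the LSD2/eGFP/Flag arrays that lack the line's markers. The cytosolic synthetases gave 0.76 for AARS1, 1.02 for EPRS1, 0.44 for FARSA, 0.33 for IARS1, 0.41 for VARS1, 0.47 for WARS1 and 1.21 for YARS1, with -0.85 for HARS1 and -0.58 for RARS1. The mitochondrial synthetases gave 0.45 for IARS2, 0.54 for LARS2 and 0.53 for SARS2. PHGDH gave 2.92, MTHFD1 0.79, MTHFD2 0.53 and GOT2 0.42.

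The same test called a difference for further genes named above. These were CARS2 (0.78), FARS2 (0.40) and NARS2 (0.57) among the other synthetases, and GLDC (4.72), DLD (0.76), SLC19A1 (2.16), AHCY (0.36), CBS (6.24), CTH (1.38), GCSH (0.73), SLC25A32 (-1.0), MAT2B (-0.57) and MTRR (-0.41) among the one-carbon genes. Purine synthesis added PRPS1 (0.57), PFAS (1.08), ATIC (0.32) and IMPDH1 (0.46). The amino acid response list added ATF3 (2.22), STC2 (2.34), ATF4 (1.35), VLDLR (-2.04), CEBPG (-1.12) and DDIT3 (-1.01), and the transporters SLC7A11 (-1.94), SLC38A1 (-1.48), SLC38A2 (-1.10) and SLC43A1 (0.83). MYC gave 1.45 and MYCL 1.77. Of the markers of the line, CD44 gave -8.31, AXL -7.51, ANXA1 -8.69 and TGFBI -6.04. Of the other cell type markers, FOXA1 gave -0.83, PECAM1 -1.09, LYZ -0.45 and CD14 0.41.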

How the results depend on the processing

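The 4 members called in the shRNA comparison became 1 at adjusted p under 0.01 and 2 to 5 with 1 array left out, and 3 to 6 under the other alternatives, with 2352 of all genes called under array weights, 564 at adjusted p under 0.01, and 752 to 1347 with 1 array left out against 1260. The 21 called in the vector comparison stayed between 18 and 22, and 18 to 21 with 1 array left out, beside 6824 of all genes (5761 to 6929, and 6411 to 6818 with 1 array left out); the 16 called for the difference stayed between 14 and 18, and 15 to 18 with 1 array left out, beside 6029 (4929 to 6320, and 5681 to 5980). PSPH reversed in the vector comparison with the mean of its probe sets (-1.07, adjusted p 6.71e-06) and with its second probe set alone (-2.26), and MYCN moved from 0.00 to 0.67 with the mean of its probe sets. Same-numbered arrays did not deviate together in every pair (r from 0.02 to 0.51 for shRNA and -0.14 to 0.18 for vector), so the numbers were not taken as pairing. Within the shRNA arrays, replicates 2 and 3 did deviate together by number (0.51 and 0.45), and the crossed pairs of these gave -0.48 and -0.46. With the replicate number as a block, 4, 20 and 16 members were called, and SHMT2 alone was lost (adjusted p 0.0565). Of all genes 1071, 6690 and 5871 were called with the block, against 1260, 6824 and 6029 without it. The shRNA calls of LARS2 and CARS1 held with each array left out in turn.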
